A study of Mus musculus with 28 samples.

Results

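The small leucine-rich proteoglycans are secreted matrix proteins built from leucine-rich repeats, most of them carrying glycosaminoglycan chains. They bind collagen fibrils and set their diameter and spacing, and several hold growth factors such as TGF-beta in the matrix. In the adult liver they are known mainly from stellate cells, portal fibroblasts and scar tissue, and little from hepatocytes. The genes described here are Dcn (decorin), Bgn (biglycan) and Aspn (asporin) of class I, Lum (lumican), Fmod (fibromodulin), Prelp (a heparin-binding member) and Omd (osteoadherin) of class II, and Ogn (osteoglycin, also called mimecan) of class III. They are 8 of 23712 genes in the files, taken by symbol, and they were chosen by family name around Lum, which was selected on its low counts with a Foxa3 mutant, so the values with that mutant are a description. Each of the 8 passed the filter on low counts.

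Mouse embryonic fibroblasts (MEF) of strain C57BL/6, prepared at 13.5 days post coitum, were made to express transcription factors from pGCDNsam retroviruses. Induced hepatocyte-like (iHep) cells had received Hnf4alpha with Foxa1 (6 libraries), Foxa2 (4) or Foxa3 (6). The del2 libraries (2) had received Hnf4alpha with a Foxa3 del2 mutant, and cells taken 48 h after infection had received Hnf4alpha with Foxa1, Foxa2 or Foxa3 (2 each). Hepatocytes (Hep, 2) came from 10-week-old adult C57BL/6 livers by collagenase digestion, and untreated MEF (2) stand for the starting cells. The del2 libraries differ from these MEF in sex-linked genes, as given below, so these MEF do not match the cells that del2 came from. No library analysed here was labelled as empty virus or Hnf4alpha alone, so the virus and the factors cannot be told apart. The labels give neither the residues that del2 lacks nor whether libraries of a group came from separate cultures, so a p-value covers the spread between libraries, which may be technical.

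Libraries held 14592820 to 51743266 estimated counts. Levels are CPM, counts scaled to library size with TMM. Calls rest on edgeR's quasi-likelihood test over 16499 genes, with a Benjamini-Hochberg adjusted p under 0.05. Summed CPM of 8 fibroblast markers ran from 327 to 1554 in iHep libraries, 10808 to 12006 with del2, 25637 to 28118 at 48 h, 29.1 to 48.5 in Hep and 39800 to 43459 in MEF. Summed CPM of 8 hepatocyte markers ran from 2138 to 29553 in iHep libraries, 486 to 511 with del2, 9.81 to 14.1 at 48 h, 200739 to 218975 in Hep and 13.3 to 15.6 in MEF. With del2, 6 of the 8 hepatocyte markers, among them Alb, stayed under 1 CPM. The del2 labels conflict: titles say 48 h, the stage says iHep. The del2 libraries had 0.146 and 0.160 CPM of Xist and 129 and 116 CPM of the Y-linked Ddx3y, while every other library had 585 to 1976 CPM of Xist and at most 0.0952 CPM of Ddx3y. Libraries also fell into sets by the small nuclear RNA Rn7sk: it was at least 10 CPM in all 48 h libraries, Foxa1 iHep replicates 4 to 6 and Foxa3 iHep replicates 2 to 6, and lower in the rest. Rps29 had 249 to 921 CPM in the high Rn7sk libraries and 23.8 to 60.5 CPM in the low ones other than del2. The del2 libraries, low in Rn7sk, had 372 and 373 CPM of Rps29, so the 2 genes place them in unlike sets.

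Bgn was the most abundant of the 8 genes per transcript length in iHep, del2, 48 h and MEF libraries, and Dcn was in Hep. Summed FPKM (fragments scaled to transcript length and library size) of the 8 genes was 109 ± 76.6 in Foxa1 iHep cells, 260 ± 158 in Foxa2 iHep cells and 70.6 ± 37.0 in Foxa3 iHep cells (SD, n = 6, 4 and 6). It was 1171 ± 37.4 with del2, between 2173 and 2282 on average in the 48 h groups, 19.8 ± 4.06 in Hep and 896 ± 261 in MEF (SD, n = 2 each). Every iHep library lay below every 48 h and MEF library on this sum, and Hep libraries lay within the range of Foxa3 iHep libraries, whose lowest was 8.67. Of the summed FPKM, Bgn made up 73.5 to 77.3% in the iHep groups, 74.1% with del2, 66.0 to 67.6% at 48 h, 27.3% in Hep and 73.8% in MEF. Dcn made up 57.3% in Hep, while Lum made up 0.306% with del2 and 9.8 to 10.0% at 48 h.

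**Figure D1:**
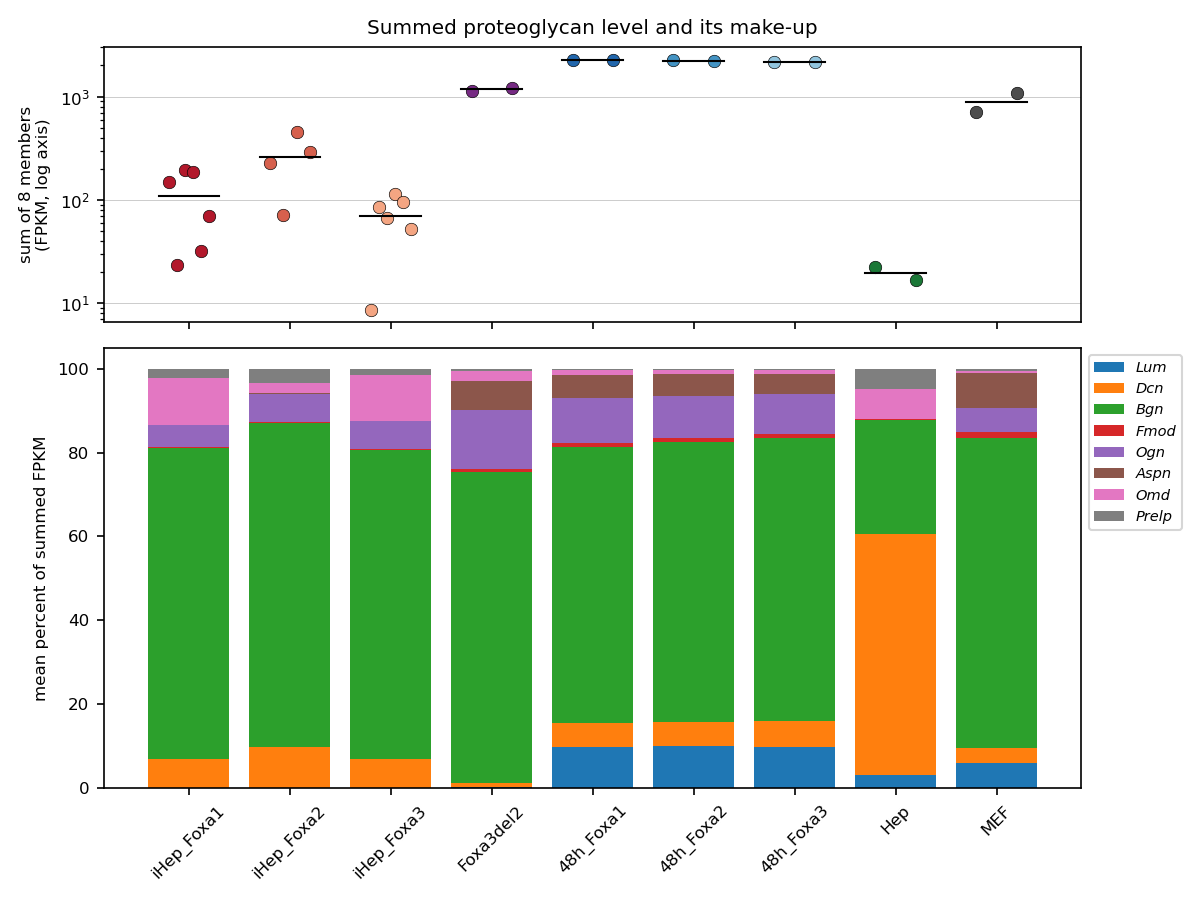
Top, summed FPKM of the 8 proteoglycan genes in each library, on a log axis, by group; bottom, mean share of each gene in that sum in percent. The iHep libraries lie between 8.67 and 453 FPKM, the 48 h libraries between 2164 and 2283, and Bgn takes the widest band in every group but Hep, where Dcn does.

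The class I genes were lower in iHep libraries than at 48 h, by unlike amounts. Bgn, a proteoglycan known to hold TGF-beta and to signal through Toll-like receptors, had a lowest, median and highest level of 45.2, 194 and 347 CPM in Foxa1 iHep libraries and 11, 145 and 176 CPM in Foxa3 iHep libraries. Foxa2 iHep libraries had 401, 124, 906 and 432 CPM. All lay below the 48 h libraries, which had 3325 and 3225 CPM with Foxa1, 3316 and 3170 with Foxa2 and 3215 and 3217 with Foxa3, and below MEF at 1452 and 1816 CPM. Hep had 24.2 and 22.9 CPM, and 1 Foxa3 iHep library was lower still.

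Dcn, which ties fibrils together and binds growth factors and receptors, spread far more widely among iHep libraries. It had a lowest, median and highest level of 0.712, 4.26 and 73.6 CPM with Foxa1 and 1.03, 6.54 and 24.3 CPM with Foxa3, and 42.1, 12.3, 3.37 and 89.6 CPM with Foxa2. The 48 h libraries held a narrow 213 to 230 CPM, while Hep had 49.6 and 29.6 CPM and MEF 12.4 and 129 CPM. The iHep libraries were thus below every 48 h library. Those of Foxa3 also lay below both Hep libraries, and those of Foxa1 and Foxa2 ran across them.

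Aspn, an inhibitor of TGF-beta best known from cartilage, was near 0 in iHep and Hep libraries. The 16 iHep libraries held 164 counts of it in all and none in 4 libraries, with levels of 0, 0.0650 and 1.27 CPM (lowest, median, highest) with Foxa1 and 0, 0.0648 and 0.399 CPM with Foxa3. Foxa2 iHep libraries had 0.329, 0.0322, 2.52 and 0.179 CPM. Levels were 222 to 285 CPM at 48 h and 115 and 267 CPM in MEF, and Hep had 0.122 and 0 CPM, so iHep and Hep libraries overlapped far below the other cells.

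Of class II, Lum, which regulates collagen fibrils in the cornea and connective tissue, had the fewest counts of the 8 genes in iHep libraries. The 16 iHep libraries held 9 counts of it in all and none in 10 libraries, with at most 0.103 CPM. At 48 h it had 411 and 435 CPM with Foxa1, 408 and 436 with Foxa2 and 408 and 409 with Foxa3. Hep had 3.67 and 1.49 CPM, above every iHep library, and MEF had 39.6 and 226 CPM. The MEF libraries thus differed from each other more for Lum than the 6 libraries at 48 h did.

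Fmod, which shares a collagen-binding site with Lum, had 0.157, 0.245 and 1.55 CPM (lowest, median, highest) in Foxa1 iHep libraries, 0.0322, 0.330 and 1.90 CPM with Foxa3, and 2.37, 0.0966, 6.17 and 0.357 CPM with Foxa2. The 48 h libraries ran from 50.6 to 54.0 CPM, Hep had 0 and 0.125 CPM and MEF 35.1 and 44.0 CPM. All iHep libraries lay below 48 h and MEF. Those of Foxa2 and Foxa3 overlapped Hep, and every Foxa1 iHep library was above it.

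Prelp, which anchors basement membranes through heparan sulfate, had the highest iHep mean relative to 48 h of the 8 genes with Foxa1 and Foxa2 (40.3 and 77.9% of the mean at 48 h), but not with Foxa3 (16.65%, below Omd at 24.0%). It had 0.667, 6.5 and 34.2 CPM (lowest, median, highest) in Foxa1 iHep libraries and 0.0992, 4.95 and 8.81 CPM with Foxa3, against 24.3, 14.1, 14.8 and 36.4 CPM with Foxa2. Levels at 48 h were 26.2 to 31.1 CPM, so the highest Foxa1 and Foxa2 iHep libraries were above all 48 h libraries. Hep had 6.49 and 5.98 CPM and MEF 15.3 and 24.4 CPM.

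Omd, a keratan sulfate proteoglycan of mineralised matrix, had 4.74, 11.5 and 22.9 CPM (lowest, median, highest) in Foxa1 iHep libraries, 3.79, 7.25 and 13.2 CPM with Foxa3, and 4.89, 5.54, 16.4 and 9.32 CPM with Foxa2. These were below the 48 h libraries, at 29.8 and 51.6 CPM with Foxa1, 27.1 and 31.1 with Foxa2 and 31.5 and 27.4 with Foxa3. Hep had 4.65 and 4.48 CPM and MEF 8.57 and 4.81 CPM. Unlike the other 7 genes, Omd had a higher mean in all 3 iHep groups than in MEF, and the libraries overlapped. Within Foxa1 iHep cells, Omd was 14.0 to 22.9 CPM in the 3 libraries with high Rn7sk. It was 4.74 to 9.01 CPM in the 3 with low Rn7sk. Fmod did not overlap there either, at 0.285 to 1.55 CPM with high and 0.157 to 0.206 CPM with low Rn7sk. Its lowest high library, replicate 5, held 5 counts, and the low libraries held 4 to 6. The other genes overlapped between these sets. In Foxa3 iHep cells replicate 1, the only library with low Rn7sk, was the lowest for Dcn, Bgn, Ogn and Prelp. Prelp was 0.0992 CPM in it and 1.26 to 8.81 CPM in the rest. Lum, Fmod, Aspn and Omd overlapped between the Foxa3 sets. The share of all genes without overlap between the sets was not computed for either factor, so these separations are only described.

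Ogn, the class III member, was found in every iHep library and in no Hep library. It had 1.61, 15.0 and 28.3 CPM (lowest, median, highest) in Foxa1 iHep libraries, 1.06, 10.8 and 25.7 CPM with Foxa3, and 20.7, 13.5, 88.8 and 49.7 CPM with Foxa2. It had 543 and 581 CPM at 48 h with Foxa1, 498 and 558 with Foxa2 and 476 and 480 with Foxa3, 0 counts in Hep, and 131 and 141 CPM in MEF. The iHep libraries lay below both the 48 h and the MEF libraries without overlap.

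**Figure D2:**
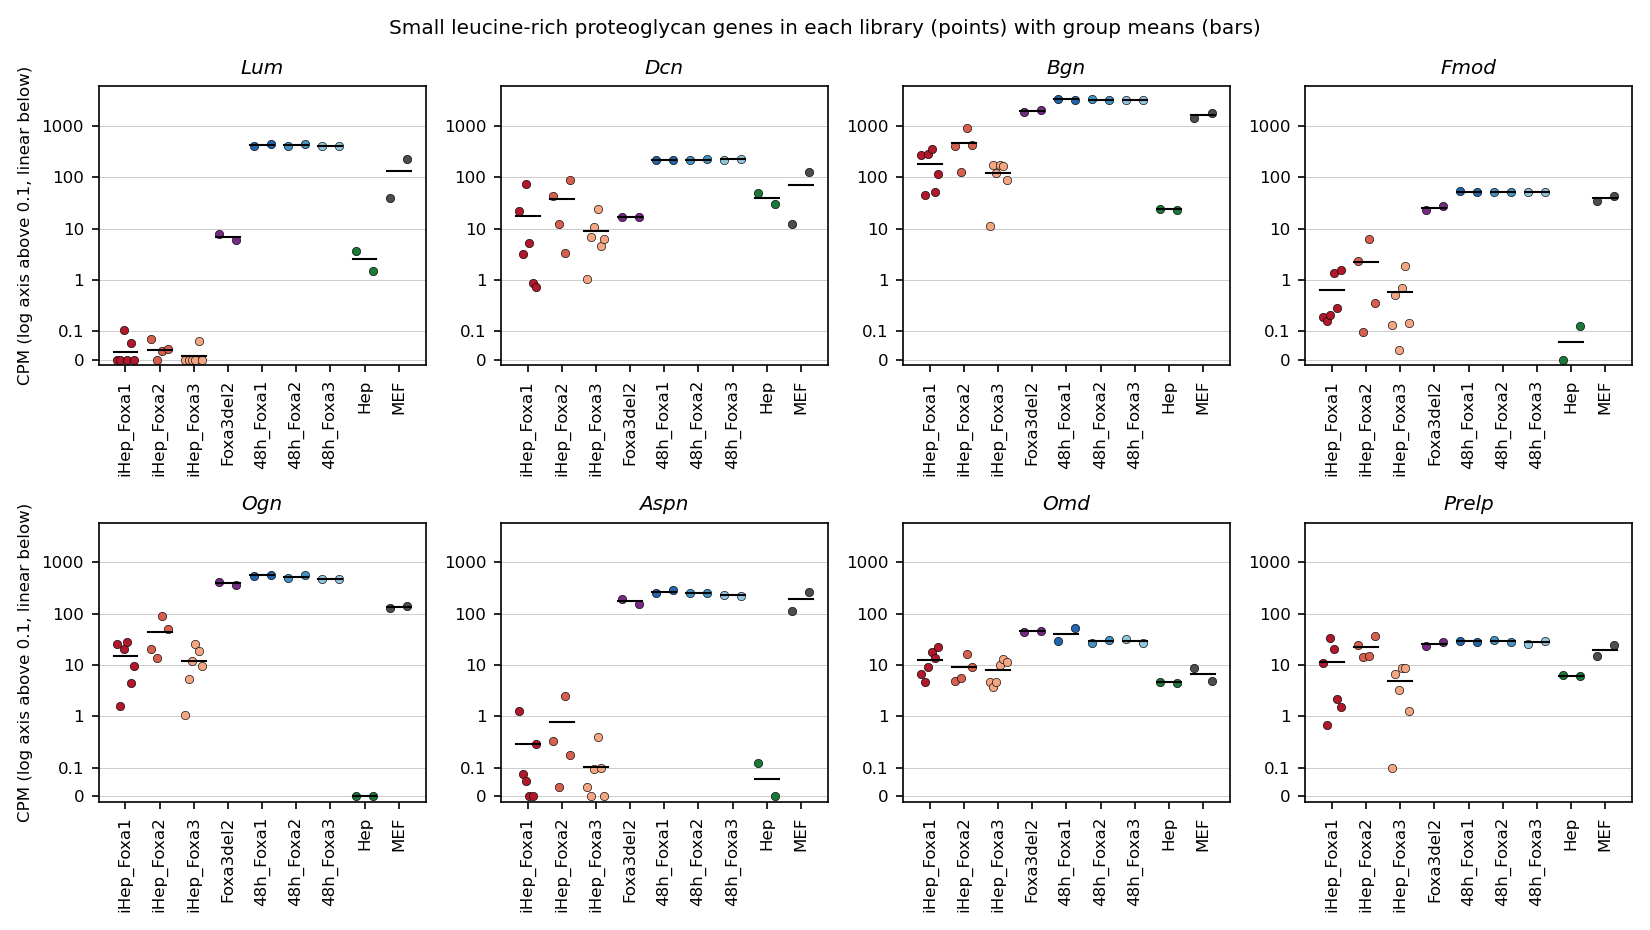
Level of each of the 8 genes in every library, in CPM on a log axis, by group, each point a library. At 48 h the libraries of a gene lie close together, while Dcn in iHep cells runs from 0.712 to 89.6 CPM.

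The order of the group means differed among the genes. The 3 groups at 48 h had the highest means for 7 genes, and for Omd del2 came first with 45.6 CPM. For Bgn, Aspn, Fmod and Ogn the order below 48 h, del2 and MEF was Foxa2 iHep, Foxa1 iHep, Foxa3 iHep and Hep, and neighbouring iHep groups overlapped in each case. For Lum and Dcn, Hep stood above the 3 iHep groups, for Lum without overlap and for Dcn overlapping those of Foxa1 and Foxa2. For Prelp, Foxa2 iHep cells (22.4 CPM on average) stood between del2 (26.1 CPM) and MEF (19.8 CPM), and all 3 overlapped.

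Of the 8 genes, 7 were lower in Foxa1 iHep cells than in Foxa1 48 h cells, where 20.7% of all genes tested were called lower. In Foxa2 cells 6 were lower beside 19.7% of all genes, and in Foxa3 cells all 8 were lower beside 21%. The median log2 fold change of the 8 genes was −4.69 with Foxa1, −3.21 with Foxa2 and −5.01 with Foxa3, where that of all genes was 0.08, 0.02 and 0.05. In bulk RNA, fewer cells that make a transcript and less of it per cell cannot be told apart.

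Lum had the widest gap. From 3 counts in the Foxa1 iHep group and 34791 at 48 h, 48 h cells were 20000-fold higher (95% exact interval 6860 to 97200, counting error only, adjusted p = 1.77e-12, edgeR). From 2 counts in Foxa3 iHep cells and 37087 at 48 h, 48 h cells were 35900-fold higher (9930 to 296000, adjusted p = 1.11e-12, edgeR). In Foxa2 cells the group counts were 4 in iHep and 37794 at 48 h (adjusted p = 6.86e-11, edgeR). Intervals on counts cover counting error and not the spread between cultures.

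Aspn followed, with log2 fold changes of −9.68 ± 0.96 with Foxa1, −8.32 ± 1.07 with Foxa2 and −11.06 ± 1.04 with Foxa3 (SE, adjusted p = 1.12e-07, 5.30e-06 and 4.37e-08, edgeR). Fmod changed by −6.39 ± 0.98, −4.51 ± 1.05 and −6.48 ± 0.97, and Ogn by −5.23 ± 0.80, −3.61 ± 0.89 and −5.31 ± 0.80, in the same order of factors. Their adjusted p-values lay between 1.67e-05 and 0.00329 (edgeR). Bgn changed by −4.15 ± 0.69, −2.80 ± 0.77 and −4.72 ± 0.69 (adjusted p = 5.74e-05, 0.00659 and 1.26e-05, edgeR). With a term for the Rn7sk sets, which split Foxa2 iHep from Foxa2 48 h libraries fully, the Foxa2 changes were −2.16 for Bgn (adjusted p = 0.137), −2.04 for Fmod (0.297), −2.94 for Ogn (0.0770) and −0.45 for Omd (0.595), and these 4 calls were lost (edgeR). Lum and Aspn were still called in that fit, and Dcn was called there as well. Only Foxa1 and Foxa3 iHep cells hold both sets, so the term was estimated within them and carried over to Foxa2. Their sets also differed in summed hepatocyte markers. With Foxa1 these were 5171 to 5438 CPM in low and at least 16559 CPM in high Rn7sk libraries. With Foxa3 they were 9381 and at least 19079 CPM. Set and marker level cannot be told apart in this term.

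Omd fell least among the genes called with all 3 factors, by 1.71 ± 0.50, 1.68 ± 0.55 and 1.89 ± 0.50 on the log2 scale (SE, adjusted p = 0.00885, 0.0186 and 0.00418, edgeR). Without 48 h Foxa1 replicate 2, the library with 51.6 CPM, the Foxa1 change was −1.26 (adjusted p = 0.170, edgeR). The Foxa2 call of Omd was lost when any of 4 libraries was left out: Foxa2 iHep replicate 1 or 2 or 48 h Foxa2 replicate 1 or 2 (adjusted p between 0.0508 and 0.0885, edgeR). Dcn fell by 3.62 ± 1.16 with Foxa1 and by 4.65 ± 1.17 with Foxa3 (SE, adjusted p = 0.0155 and 0.00304, edgeR), and its Foxa2 change of −2.58 was not called (adjusted p = 0.116). With the term for the Rn7sk sets the Foxa2 change of Dcn was −5.30 and was called (adjusted p = 0.0412, edgeR). Without 48 h Foxa1 replicate 1 or 2 the Foxa1 change of Dcn stayed near −3.62, with adjusted p = 0.0620 or 0.0597 (edgeR). In the high Rn7sk libraries alone it was −6.57 (adjusted p = 5.85e-05, edgeR). Prelp was called with Foxa3, at −2.54 ± 0.95 (SE, adjusted p = 0.0369, edgeR), and this call was lost without 48 h Foxa3 replicate 1 or 2 or Foxa3 iHep replicate 3 or 6 (adjusted p between 0.0624 and 0.145). Its iHep levels with Foxa1 and Foxa2 overlapped those at 48 h and were not called.

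As a share of the mean of the 6 libraries at 48 h, the means of the 3 iHep groups were 0.00265 to 0.00839% for Lum, 0.0420 to 0.307% for Aspn, 1.10 to 4.35% for Fmod and 2.31 to 8.26% for Ogn. They were 3.77 to 14.4% for Bgn, 4.06 to 16.7% for Dcn, 24.0 to 37.8% for Omd and 16.65 to 77.9% for Prelp. Prelp was above Omd on this share with Foxa1 and Foxa2 and below it with Foxa3. Whether the change from 48 h to iHep differed between Foxa1, Foxa2 and Foxa3 was tested directly: edgeR and DESeq2 both called 0 of the 8 genes in each of the 3 pairs of factors, and 0 had an unadjusted p under 0.05. Among all genes 0% were called in these contrasts. The differences of the 8 genes all had the same sign within each pair. Their medians on the log2 scale were −1.19 for Foxa1 minus Foxa2, 0.62 for Foxa1 minus Foxa3 and 1.94 for Foxa2 minus Foxa3. The absence of calls does not show that the changes were alike.

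**Figure D3:**
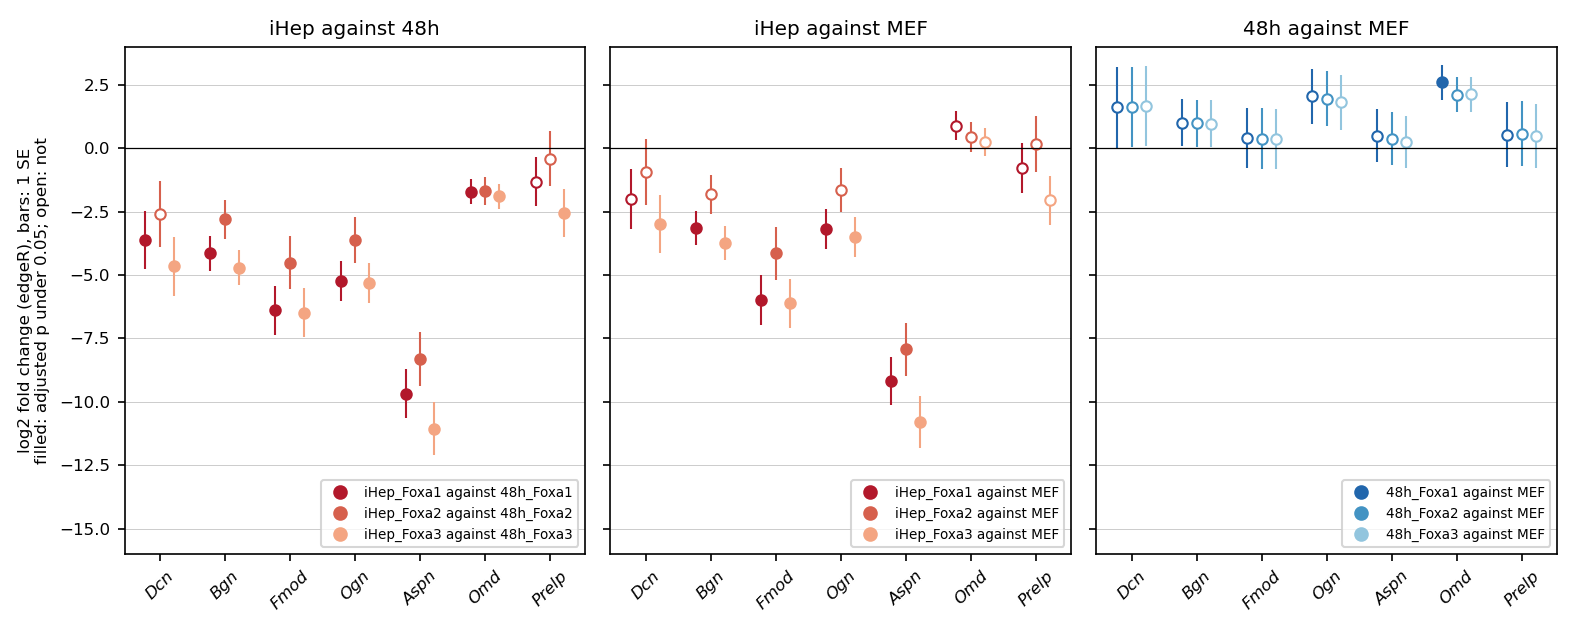
Log2 fold changes of 7 genes (Lum, with 9 counts in iHep cells, left out) for iHep against 48 h, iHep against MEF and 48 h against MEF, by Foxa factor; filled points were called at adjusted p under 0.05 and bars are 1 SE. In iHep cells Aspn lies lowest with all 3 factors in both left panels, down to −11.06, and the points for 48 h against MEF are all above 0.

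Aspn, Omd and Ogn lie next to each other on chromosome 13, on the same strand, yet their iHep group means were 0.0420 to 0.307%, 24.0 to 37.8% and 2.31 to 8.26% of the mean at 48 h. Their upstream bases are shown because the genes share a neighbourhood and differ in level. Each is the 250 bases before the RefSeq start in GRCm38.p6, plus strand, chr13:49544193-49544442 for Aspn, chr13:49582212-49582461 for Omd and chr13:49607765-49608014 for Ogn. Capitals mark TATAAA on either strand, where overlapping matches run together.
Aspn: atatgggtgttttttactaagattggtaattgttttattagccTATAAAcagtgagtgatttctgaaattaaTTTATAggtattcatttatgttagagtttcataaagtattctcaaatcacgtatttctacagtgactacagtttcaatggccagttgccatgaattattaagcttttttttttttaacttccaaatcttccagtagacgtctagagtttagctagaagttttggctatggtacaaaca
Omd: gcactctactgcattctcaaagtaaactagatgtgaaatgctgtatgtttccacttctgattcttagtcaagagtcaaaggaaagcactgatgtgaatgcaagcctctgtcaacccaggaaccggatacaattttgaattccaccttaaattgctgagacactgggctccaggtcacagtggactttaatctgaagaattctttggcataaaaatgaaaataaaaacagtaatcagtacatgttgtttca
Ogn: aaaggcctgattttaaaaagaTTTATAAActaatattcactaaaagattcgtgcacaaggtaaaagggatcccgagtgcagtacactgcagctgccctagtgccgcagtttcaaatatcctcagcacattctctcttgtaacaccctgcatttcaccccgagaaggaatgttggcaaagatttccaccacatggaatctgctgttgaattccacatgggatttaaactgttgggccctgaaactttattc
The windows hold 30.0% G and C for Aspn, 38.4% for Omd and 42.0% for Ogn, where the median of all windows was 52.4%. Upstream sequences were found for 6 of the 8 genes (Aspn, Omd, Ogn, Bgn, Fmod and Prelp), and TATAAA occurred in those of Aspn and Ogn, as in 12.37% of 32851 mouse windows of the same length. In Aspn the matches began 207 and 178 bases and in Ogn 229 and 227 bases before the start. The forkhead motifs TGTTTAC and TGTTTGC (3.17% and 4.3% of windows), the AP-1 motif TGANTCA (6.75%) and the HNF4 motif CAAAGTCCA (0.38%) were searched on both strands and were in 0 of the 6. No match says only that these letters are not in the window.

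Against untreated MEF, fewer of the 8 genes were lower: 5 in Foxa1 iHep cells beside 19.9% of all genes, 3 in Foxa2 iHep cells beside 15.5% and 6 in Foxa3 iHep cells beside 23.7%. The median log2 fold change was −3.16, −1.73 and −3.61, where that of all genes was 0.08, 0.06 and 0.05. Lum, Fmod and Aspn were lower with all 3 factors. Foxa1 iHep cells had 3 counts of Lum and MEF 5580, which put MEF 6290-fold higher (95% exact interval 2150 to 30500), and from the 2 counts in Foxa3 iHep cells MEF were 11700-fold higher (3240 to 96600). Aspn changed by −9.18 ± 0.95, −7.93 ± 1.06 and −10.80 ± 1.04 with Foxa1, Foxa2 and Foxa3, and Fmod by −5.98 ± 0.97, −4.13 ± 1.04 and −6.11 ± 0.97 (SE, adjusted p between 5.32e-08 and 0.00445, edgeR). With the libraries of the compared groups alone, the Foxa2 call of Fmod was lost (adjusted p = 0.0508).

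Bgn and Ogn were called lower than in MEF with Foxa1 and Foxa3. Bgn changed by −3.14 ± 0.68 and −3.74 ± 0.68 (adjusted p = 0.000911 and 0.000131, edgeR), and Ogn by −3.18 ± 0.78 and −3.49 ± 0.78 (adjusted p = 0.00280 and 0.00105, edgeR). In Foxa2 iHep cells the changes were −1.81 for Bgn (adjusted p = 0.0779) and −1.65 for Ogn (adjusted p = 0.164), also with no library overlapping MEF. Neither gene was called between Foxa1 and Foxa2 iHep cells. The Foxa2 value of Bgn passed the threshold in DESeq2 (adjusted p = 0.0411) and without Foxa2 iHep replicate 3, the library with 906 CPM (adjusted p = 0.0340, edgeR).

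For Dcn the comparison with MEF depended on single libraries and on the Rn7sk sets. It was called with Foxa3, at −2.98 ± 1.16 (SE, adjusted p = 0.0393, edgeR), although the groups overlapped. Without MEF replicate 2, which had 129 CPM of Dcn, 226 CPM of Lum and 300 CPM of summed leukocyte markers, it was −0.45 (adjusted p = 0.863, edgeR). MEF replicate 1 had 12.4, 39.6 and 25.2 CPM. The part of leukocytes in these levels was not tested. Leaving out Foxa3 iHep replicate 1, 2, 3, 5 or 6 also ended the call (adjusted p between 0.0537 and 0.0676). With a term for the Rn7sk sets the Foxa3 change was −0.30 (adjusted p = 0.924, edgeR). With Foxa1 Dcn changed by −2.0 (adjusted p = 0.180), which passed without Foxa1 iHep replicate 3 (−3.42, adjusted p = 0.0137) and was 0.47 without MEF replicate 2 (adjusted p = 0.875). With Foxa2 it changed by −0.94 (adjusted p = 0.634), and by 1.53 without MEF replicate 2. Omd and Prelp were not called against MEF with any factor.

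At 48 h none of the 8 genes was called lower than in MEF, beside 3.12%, 3.28% and 2.98% of all genes with Foxa1, Foxa2 and Foxa3. All 8 fitted fold changes against MEF were above 0 with each factor, with medians of 1.31, 1.31 and 1.30 on the log2 scale, where all genes had 0.04, 0.06 and 0.06. The 3 comparisons share the same MEF libraries, and the 48 h and MEF libraries differ fully in Rn7sk set, so time and set cannot be told apart. Omd alone was called, with Foxa1, at 2.61 ± 0.70 (SE, adjusted p = 0.0354, edgeR), beside 2.13% of all genes called higher. This call was lost when any of the 4 libraries was left out (adjusted p between 0.111 and 0.258). With Foxa2 and Foxa3, 0 of the 8 were called by edgeR and 1 each by DESeq2, and 2 each had an unadjusted p under 0.05. Of all genes, 2.2% and 2.22% were called higher there.

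Lum at 48 h was above both MEF libraries with each factor, with log2 fold changes of 1.67, 1.67 and 1.62 (adjusted p = 0.0851, 0.0841 and 0.0937, edgeR). Without MEF replicate 2 it was 3.49, 3.48 and 3.43 (adjusted p = 0.0272, 0.0273 and 0.0301). Ogn had values of 2.05, 1.96 and 1.82, with adjusted p between 0.262 and 0.320 (edgeR). Bgn had 1.0, 0.99 and 0.98 and Dcn 1.62, 1.64 and 1.67, and none of these was called in the fit over all libraries. With the libraries of the compared groups alone, Ogn and Bgn were called higher with each factor. Adjusted p there lay between 0.00251 and 0.00317 for Ogn and between 0.0106 and 0.0130 for Bgn (edgeR). The Aspn libraries at 48 h overlapped those of MEF with each factor, at 222 to 285 CPM against 115 and 267 CPM. Between the 48 h groups both edgeR and DESeq2 called 0 of the 8 in each of 3 pairs, and 0 had an unadjusted p under 0.05. Of all genes, 0.00606% were called between Foxa1 and Foxa2 and 0.0121% in each of the other pairs.

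Adult hepatocytes had 5 of the 8 genes lower than MEF, beside 32.6% of all genes. The median log2 fold change was −5.90 and that of all genes −0.29. Bgn changed by −6.11 ± 1.15 and Lum by −5.68 ± 0.71 (SE, adjusted p = 0.000108 and 6.94e-07, edgeR). Hep held 0 counts of Ogn, at least 733-fold lower than MEF, taking 3 counts in the group as the limit. It held 1 count each of Fmod and Aspn, for which MEF were 641-fold (95% exact interval 115 to 25300) and 3100-fold (556 to 122000) higher. Dcn changed by −0.83, Omd by −0.55 and Prelp by −1.67, and none of the 3 was called (adjusted p = 0.677, 0.521 and 0.299). Without MEF replicate 2 the Dcn change was 1.76. In Hep, summed endothelial markers were 172 CPM, stellate cell markers 39.1 and 71.3 CPM and leukocyte markers 311 and 405 CPM. Their part in the Dcn and Lum levels of Hep was not tested.

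Against Hep, 3 of the 8 genes were higher and 1 lower in Foxa1 iHep cells, 3 higher and 1 lower with Foxa2, and 2 higher and 1 lower with Foxa3. Of all genes, 35.3%, 35.2% and 35.3% were called higher and 24.8%, 25.4% and 26.7% lower. Lum was the lower gene each time. With 3 counts in Foxa1 iHep cells and 42 in Hep, Hep was 122-fold higher (95% exact interval 39.1 to 618), and 228-fold higher than Foxa3 iHep cells with 2 counts (59.3 to 1940). Ogn was at least 84.6-fold, 237-fold and 64.5-fold higher in iHep cells with Foxa1, Foxa2 and Foxa3.

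Bgn was higher than in Hep by 2.97 ± 0.92, 4.31 ± 1.01 and 2.38 ± 0.88 on the log2 scale with Foxa1, Foxa2 and Foxa3 (SE, adjusted p = 0.00796, 0.000914 and 0.0236, edgeR). The Foxa3 libraries overlapped Hep, the Foxa3 call was lost without Hep replicate 1 or 2 (adjusted p = 0.117 or 0.127), and so was the Foxa1 call (adjusted p = 0.0637 or 0.0691). Omd in Foxa1 iHep cells (1.45 ± 0.61, adjusted p = 0.0465, edgeR) and Fmod in Foxa2 iHep cells (5.10 ± 2.20, adjusted p = 0.0493, edgeR) were called at the edge of the threshold. Omd lost its call without Foxa1 iHep replicate 4, 5 or 6 or either Hep library (adjusted p between 0.0603 and 0.184). In the low Rn7sk libraries alone, the set that Hep belongs to, Omd differed by 0.49 (adjusted p = 0.431), and with a term for the sets by 0.67 (adjusted p = 0.269). Fmod lost its call without Foxa2 iHep replicate 1 or 3 or either Hep library (adjusted p between 0.0621 and 0.218). With DESeq2 size factors the Omd and Fmod calls were also lost (adjusted p = 0.0858 and 0.0651, edgeR). That scaling put the all-gene median against Hep, on the log2 scale, at 0.21, 0.17 and 0.16 with Foxa1, Foxa2 and Foxa3, where TMM gave 0.42, 0.42 and 0.39. The Fmod value rests on 1 count in Hep, from which the ratio was 37.5 (95% exact interval 6.68 to 1490).

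Among the iHep groups, 4 of the 8 genes were higher in Foxa2 than in Foxa3 iHep cells, beside 16% of all genes. The median log2 fold change was 1.96 and that of all genes 0.03. Bgn differed by 1.93 ± 0.59, Ogn by 1.84 ± 0.68, Aspn by 2.87 ± 1.02 and Prelp by 2.23 ± 0.82 (SE, adjusted p = 0.0178, 0.0436, 0.0366 and 0.0442, edgeR). Prelp had 14.1 to 36.4 CPM in Foxa2 and 0.0992 to 8.81 CPM in Foxa3 iHep libraries and did not overlap, while Bgn, Ogn and Aspn did. Without Foxa2 iHep replicate 3, the highest library for Bgn, Ogn, Aspn and Fmod, 0 of the 8 were called, with adjusted p of 0.0980 for Bgn, 0.208 for Ogn, 0.666 for Aspn (0.75 on the log2 scale) and 0.0546 for Prelp. Without Foxa2 iHep replicate 4, 2 were called, and 1 without Foxa3 iHep replicate 2, 3 or 6. With a term for the Rn7sk sets all 4 calls were lost (adjusted p between 0.117 and 0.509, edgeR), while Fmod, not among the 4, was called at 4.23 (adjusted p = 0.0430, edgeR).

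Between Foxa1 and Foxa2 iHep cells edgeR and DESeq2 called 0 of the 8 genes, 3 had an unadjusted p under 0.05, and 11% of all genes were called. Without Foxa1 iHep replicate 1 edgeR called 1. Between Foxa1 and Foxa3 iHep cells both tools called 0, 0 had an unadjusted p under 0.05, and 8.32% of all genes were called. In the high Rn7sk libraries alone, Dcn was lower in Foxa1 than in Foxa3 iHep cells, by −2.16 on the log2 scale (adjusted p = 0.0499, edgeR), against 0.98 over all libraries (adjusted p = 0.541).

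With the del2 mutant, Lum and Dcn stood out from the other 6 genes in size. These values chose Lum, so they are given with no test. Lum had 7.80 and 6.09 CPM with del2, against 408 and 409 CPM in 48 h Foxa3 cells, a log2 ratio of means of −5.88. Dcn had 17.1 and 16.6 CPM with del2, against 220 and 230 CPM, a log2 ratio of −3.74. Both genes were thus far below every 48 h library.

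Fmod had 22.8 and 26.9 CPM with del2, against 51.5 and 50.6 CPM in 48 h Foxa3 cells, and Bgn had 1862 and 2026 CPM, against 3215 and 3217 CPM. Aspn had 195 and 154 CPM with del2, against 233 and 222 CPM, and Ogn 416 and 370 CPM, against 476 and 480 CPM. The log2 ratios of these 4 genes lay between −1.04 and −0.28, all without overlap. Prelp, at 23.9 and 28.3 CPM, overlapped its 48 h Foxa3 values of 26.2 and 29.4 CPM, and Omd, at 44.6 and 46.6 CPM, lay above its values of 31.5 and 27.4 CPM. The count was 6 below, 1 above and 1 overlapping, where 39.9% of all genes lay below and 38.5% above without overlap.

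Against MEF the del2 libraries had Lum and Fmod below, Bgn, Ogn and Omd above and the other 3 overlapping (35.9% of all genes below and 39.2% above). Against Foxa3 iHep cells 7 of the 8 lay above, and Dcn overlapped (22.3% of all genes below and 25.7% above). The del2 libraries differ from the 48 h Foxa3 libraries in stage label, in Rn7sk set and in the sex-linked genes, and Bgn itself is X-linked. They differ from the MEF and Foxa3 iHep libraries in the sex-linked genes as well. Summed fibroblast markers were 10808 to 12006 CPM with del2 and 27148 to 28082 CPM in 48 h Foxa3 cells. The delivered factors also differed in level. Hnf4a had 727 and 737 CPM with del2 against 87.1 and 75.5 CPM in 48 h Foxa3 cells. Foxa3 had 506 and 612 CPM against 67.7 and 77.2 CPM. These differences and the mutant cannot be told apart.

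Lum and Dcn are neighbours. On chromosome 10 the coding genes run Dcn, Lum, Kera, Epyc, where Kera (keratocan) and Epyc (epiphycan) are also small leucine-rich proteoglycans. As a share of the mean of the 6 libraries at 48 h, del2 had 7.64% for Dcn and 1.66% for Lum. Kera averaged 0.295 CPM with del2 against 2.94 CPM in 48 h Foxa3 cells, and Epyc 0.321 against 10.8 CPM. In MEF, Kera averaged 0.0714 CPM on 3 counts, below del2. The members in other places had 48.0% (Fmod) and 90.7% (Prelp) on chromosome 1, 70.1% (Aspn), 138% (Omd) and 75.2% (Ogn) on chromosome 13, and 59.9% (Bgn) on the X chromosome. Of their proteoglycan neighbours, Ecm2 on chromosome 13 had 35.3% and Optc on chromosome 1 had 77.7%. A gene elsewhere was also low: Podn (podocan), on chromosome 4, averaged 2.23 CPM with del2 against 51.2 CPM, and its 4.30% of the mean at 48 h was lower than that of Dcn. The chromosome 10 order was read, and Kera, Epyc and Podn were picked, after the values were known.

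**Figure D4:**
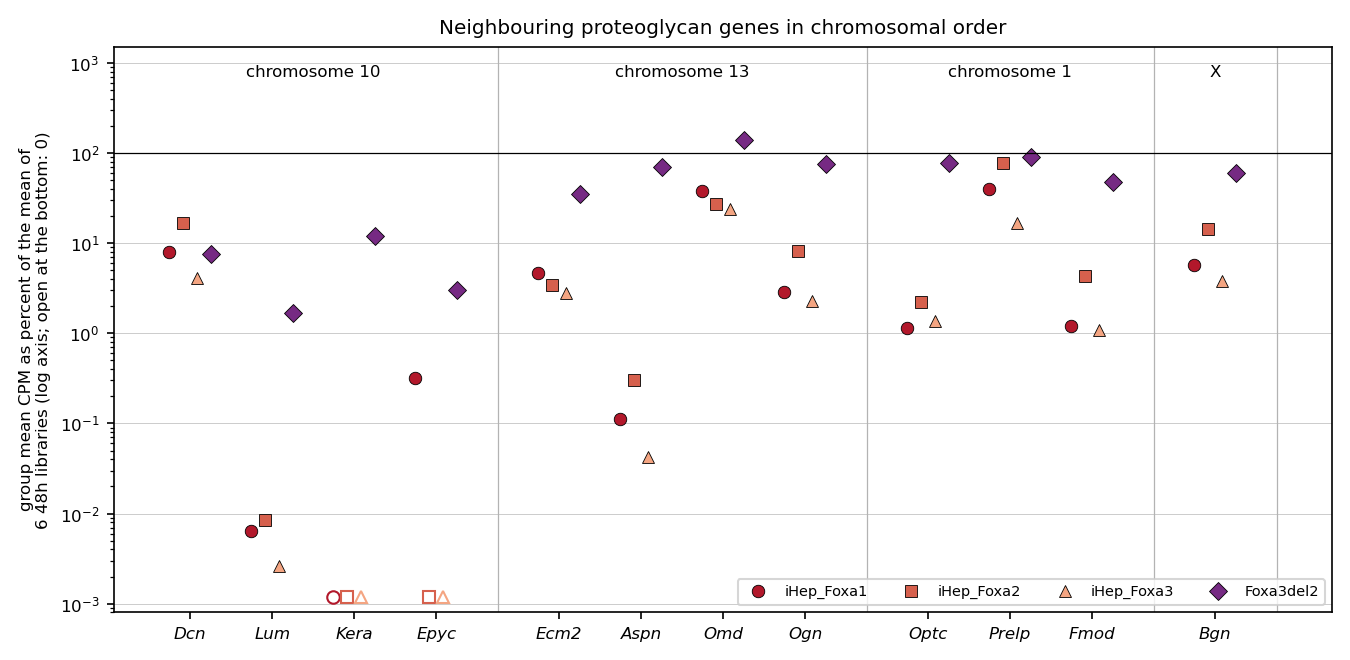
Group mean as a percent of the mean of the 6 libraries at 48 h, on a log axis, for the members and neighbouring proteoglycan genes in chromosomal order, in the 3 iHep groups and with del2; open symbols at the bottom mark 0. With del2 the block on chromosome 10 (Dcn 7.64%, Lum 1.66%) lies below the other members, of which the lowest is Fmod at 48.0%.

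Omd, Aspn and Ogn lie within the span of Cenpp, a centromere protein gene on the opposite strand. Cenpp reached at most 11.9 CPM and shares 7 exon bases with Aspn and 0 with Omd and Ogn. Prelp shares 350 of 3615 exon bases with Gm15851 on the opposite strand. The library kit keeps strand, but whether counting used it is not stated, so such reads cannot be told apart from those of Prelp.

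Of the 10 other small leucine-rich proteoglycan genes tested, 6 were lower and 1 higher in Foxa1 iHep cells than at 48 h, 5 lower and 1 higher with Foxa2, and 6 lower and 1 higher with Foxa3. Of all genes, 20.7%, 19.7% and 21% were called lower and 21.2%, 20.4% and 19.6% higher in these comparisons. Their median log2 fold change was −3.72, −2.76 and −4.77. Podn had 0.934 CPM in Foxa1 iHep cells against 51.8 CPM at 48 h, a log2 fold change of −5.80 ± 0.86 (SE, adjusted p = 1.71e-05, edgeR). Epyc had 0.0343 CPM in Foxa1 iHep cells against 11 CPM at 48 h (−8.35 ± 1.06, adjusted p = 3.94e-05, edgeR), and with 0 counts in Foxa2 and Foxa3 iHep cells it was at least 406-fold and 632-fold lower than at 48 h. Ecm2 had 0.195 CPM in Foxa1 iHep cells against 4.48 CPM at 48 h (−4.50 ± 0.75, adjusted p = 5.87e-05, edgeR). The gene that was higher was Nyx (nyctalopin, known from the retina), at 2.55 against 0.225 CPM with Foxa1 (3.48 ± 0.87, adjusted p = 0.00281, edgeR).

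The genes that build chondroitin and dermatan sulfate, the chains carried by Dcn and Bgn, were lower for 12, 12 and 13 of 23 and higher for 3, 3 and 2, with Foxa1, Foxa2 and Foxa3, beside 19.7 to 21% of all genes called lower and 19.6 to 21.2% called higher. The median log2 fold change was −1.09, −0.91 and −1.20, where that of all genes was 0.08, 0.02 and 0.05 in these comparisons. Chpf, of the chain-extending complex, had 75.3 CPM in Foxa1 iHep cells and 160 CPM at 48 h, and Fam20b, which phosphorylates the linker xylose, had 164 and 94.1 CPM. For keratan sulfate, carried by Lum, Fmod and Omd, 5, 4 and 3 of the 9 genes tested were higher and 1 lower each time, with medians of 1.29, 1.19 and 1.91, beside the same shares of all genes. The sulfate carrier Slc26a2 had 91.6 CPM in Foxa1 iHep cells and 19.0 CPM at 48 h, and the sulfotransferase Chst2 had 4.07 and 158 CPM.

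Among the fibril collagens and partners that these proteins bind, 9, 5 and 11 of 13 were lower with Foxa1, Foxa2 and Foxa3, and 0, 1 and 0 higher, with medians of −3.31, −1.60 and −5.26. Of all genes 19.7 to 21% were called lower and 19.6 to 21.2% higher, with medians of 0.08, 0.02 and 0.05. Col3a1, the collagen of pliable tissue, had 8.09 CPM in Foxa1 iHep cells and 7567 CPM at 48 h. Of proteases that trim or degrade these proteins, 10, 9 and 9 of 11 were lower and 1, 0 and 1 higher, with medians of −3.47, −2.48 and −4.57. Mmp2, a gelatinase, had 3.0 CPM in Foxa1 iHep cells and 676 CPM at 48 h, while Mmp13, a collagenase known to cleave Fmod, was higher at 592 CPM in Foxa3 iHep cells and 2.95 CPM at 48 h (7.65 ± 1.35, adjusted p = 0.000103, edgeR).

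Of 16 ligands and receptors known to be bound by members of the family, 6 were lower with each factor and 1, 3 and 1 higher, with medians of −0.28, −0.19 and −0.56, beside 19.7 to 21% of all genes called lower and 19.6 to 21.2% called higher. Tgfb3 had 13.8 CPM in Foxa1 iHep cells and 196 CPM at 48 h, and Lrp1, an uptake receptor, had 403 and 1151 CPM. Of 19 other matrix and surface proteoglycans, 10, 10 and 11 were lower and 3, 3 and 2 higher, with medians of −1.95, −2.17 and −2.42. Versican (Vcan) had 74.4 CPM in Foxa1 iHep cells and 441 CPM at 48 h, while the cell surface syndecan Sdc4 had 767 and 291 CPM.

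Over the 9 group means of log2(CPM + 1), Bgn and Ogn were the most alike pair (Pearson r = 0.993), then Fmod and Aspn (0.989). Among the 8, Lum was about equally like Dcn and Fmod (0.909 each). By Spearman rank correlation it was more like Fmod and Aspn (0.9 each) than Dcn (0.833). The del2 values, which chose Lum, are among the 9 means. These are descriptions over 9 points that share libraries and depth. Of all genes with a highest group mean of at least 5 CPM, the most alike were Col25a1, Cdh18 and Cst3 for Lum, Ttc30b, Lypd1 and Cdkn2c for Dcn, and Zfp521, Pcdh9 and Arf2 for Bgn. For Fmod they were Ebf1, Hacd4 and Gm2115, for Ogn Cdk5rap2, Zfp518b and Snai1, and for Aspn Ephb2, Cnrip1 and Mdga1. The closest genes to Omd (Zfp160, Golga1 and Cfap410) and Prelp (Peg13, Gas6 and Stag1) reached r = 0.971 and 0.973, lower than the 0.992 to 0.999 of the closest genes to the other 6.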

How the data were processed

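Poly(A) RNA from 28 mouse libraries in 9 groups was sequenced after TruSeq Stranded mRNA preparation, per the labels' protocols. Reads were aligned with BWA 0.7.12 to mm9, per the submitters' processing notes; the sources used here do not give the quantifier, its use of strand or the annotation. The authors deposited estimated (expected) counts and FPKM for 30710 transcripts per library. Expected counts were summed per gene symbol and rounded, and the deposited FPKM of the authors was used as it stands, without TMM scaling, to compare genes per length. A fraction per transcript that the authors also deposited (THETA in the file headers) was not used. Names came from RefSeq (30190 transcripts) and GENCODE (181), and 339 transcripts, with 0.609 to 3.208% of the reads, were not named. The GRCm38.p6 tables gave names, neighbours and upstream sequences, and no mm9 coordinate was used.

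The 8 genes and all gene lists were chosen with earlier results of these data known. Of other genes, up to 4 a list were named, by highest mean level among those called, and the 3 most alike per member. Counts of 22 comparisons were fitted with edgeR 4.0.16 (R 4.3.3, limma 3.58.1): TMM, filterByExpr, 1 coefficient per group, a robust quasi-likelihood fit with 19 residual degrees of freedom, 2-sided, and Benjamini-Hochberg adjustment over 16499 genes. TMM factors were 0.522 and 0.550 in Hep and 0.942 to 1.10 elsewhere. The script was tested on simulated data. Genes with 1 to 3 counts in a group are given as a count ratio with a 95% exact interval, and those with 0 as a bound against 3 counts over the group. Alternatives were DESeq2 1.42.0 (test and size factors), no filter, compared groups alone, a replicate block, a term for or fits within the Rn7sk sets (10 CPM), and leaving out each library.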

Additional observations from a re-analysis of the deposited data

Results flagged for a closer look

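In 6 of 24 tests of a single library against the rest of its iHep group, the highest library stood apart by Dixon's 95% criterion. Its rate of about 1 in 20 holds for normally distributed values. These were unlogged CPM, several near 0, so the 6 flags cannot be read as an excess. Lum was 0 in 5 of the 6 Foxa3 iHep libraries, so any count in the last gave a flag. Dcn in Foxa1 iHep replicate 3 was 73.6 CPM, above 22.4 CPM in the next library. Aspn was 1.27 CPM in Foxa1 iHep replicate 1, 2.52 CPM in Foxa2 iHep replicate 3 and 0.399 CPM in Foxa3 iHep replicate 4. Fmod was 1.90 CPM and Lum 0.0665 CPM in Foxa3 iHep replicate 5. The Aspn levels rest on 41, 80 and 11 counts, that of Fmod on 57 and that of Lum on 2. None of the 6 levels reached a 48 h library.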

How the results depend on the processing

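Of 56 called values of the 8 genes, 38 were called under every alternative, 18 lost their call under at least 1 and 0 turned sign. Of 22 counts of called genes, 28 of 315 alternative values moved, which means by over 1.5 times, or to or from 0. For 48 h against MEF, compared groups alone called 3 genes with each factor, the set term called 0 with Foxa1, DESeq2 and the replicate block called 1 with Foxa2 and 1 with Foxa3, and leaving out a library gave 0 to 1. For Foxa2 iHep against 48 h the set term called 3, and against MEF the replicate block called 5, Bgn and Ogn among them (adjusted p = 0.0295 and 0.0186). That block ended the call of Dcn in Foxa3 iHep against MEF (adjusted p = 0.0858, edgeR). Against Hep it ended those of Omd in Foxa1 (0.34, adjusted p = 0.457), Fmod in Foxa2 (0.136) and Bgn in Foxa3 iHep cells (0.0592). Leaving out a library gave 2 to 5 for Foxa1 iHep against Hep and 0 to 1 against Foxa2 iHep. For Foxa1 against Foxa3 iHep cells the high Rn7sk libraries called 1. For Foxa2 against Foxa3 iHep cells no filter called 2, the replicate block 0, the set term 1, compared groups alone 1, and leaving out a library 0 to 4. Dcn changes that were not called turned sign: against MEF, leaving out a library gave −3.42 to 0.47 in Foxa1 and −1.88 to 1.53 in Foxa2 iHep cells, both above 0 without MEF replicate 2, and for Hep it gave −1.63 to 1.76. With the set term Dcn differed by −0.64 between Foxa2 and Foxa3 iHep cells. Between Foxa1 and Foxa3 iHep cells it differed by −1.22 with that term, by −2.16 in the high Rn7sk libraries, and by −0.44 to 1.59 when a library was left out. The cause was not tested. Replicate numbers did not pair libraries: same-number deviations correlated by a median of 0.002 over 80 pairs, 7 of them over 0.1, and 7 of 28 libraries correlated best with their own number. Depth limits Lum and Aspn in iHep cells, and Fmod, Aspn and Ogn in Hep.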
